A study of Rattus norvegicus with 6 samples.

Results

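The genes described here are 34 molecular chaperones and genes of the unfolded protein response, and 32 of them were measured. They were taken by name, and each had to be the only gene symbol of a probe set in the array annotation. Where a gene had several, the brightest by mean log2 signal over the 6 arrays stood for it. All 32 passed the filter on low signals, among 10600 genes tested of 14218 with a probe set of their own. The 2 that were not measured are Hspa8, which encodes the constitutive cytosolic Hsp70, with 1 probe set shared with another gene symbol, and Hsp90aa1, which encodes the inducible cytosolic Hsp90, with 2 shared probe sets. The measured genes were 7 cytosolic chaperones, 3 mitochondrial chaperones, 15 genes of folding and quality control in the endoplasmic reticulum (ER), 3 transcription factors of the unfolded protein response and 4 target genes of the transcription factor Atf4.

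Ovaries of 4-day-old female Sprague-Dawley rats were cultured whole on floating filters for 48 h, either with recombinant human NT3 at 50 ng/ml or with no added factor. NT3 is a neurotrophin, and the series title concerns the passage of primordial follicles, the resting stage, to primary follicles. There were 3 NT3 arrays and 3 control arrays, each hybridised with RNA pooled from 2 to 3 ovaries in the same medium. The labels call the replicates biological but name no animal or litter. The p-values therefore cover just the scatter among these 6 samples, which may be technical in part, and the number of arrays limits the precision. In whole organs, a change in the share of a cell type and a change of transcript per cell cannot be told apart.

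Cells meet unfolded protein in compartments of their own. In the cytosol, Hsp70 proteins bind exposed segments in cycles driven by ATP, with J-domain proteins that bring the client and Hsp110 proteins that exchange the nucleotide, and heat shock factors raise their transcription through heat shock elements. In the ER, Grp78 (the product of Hspa5), lectin chaperones and disulfide isomerases fold secreted and membrane proteins, and overload activates the sensors Atf6, Ire1 and Perk. Atf6 and spliced Xbp1 act on ER stress response elements of chaperone genes, while Perk, like other kinases of eIF2alpha, favours translation of Atf4, which drives genes of amino acid supply and of stress signalling.

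Promoters show these branches in sequence, and the following were chosen because they belong to the gene with the largest difference here and to 1 or 2 typical genes of each branch. RefSeq promoters of the GRCr8 assembly, from 250 bases before to 50 after the gene's start, were at hand for 29 of the 34 genes. On both strands, 3 motifs were searched: the heat shock element GAANNTTCNNGAA, the ER stress response element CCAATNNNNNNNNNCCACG and the Atf4 type amino acid response element TGATGNAA. Capitals mark their matches, and overlapping matches run together.
Hspa4, chr10:37949786-37950085, minus strand: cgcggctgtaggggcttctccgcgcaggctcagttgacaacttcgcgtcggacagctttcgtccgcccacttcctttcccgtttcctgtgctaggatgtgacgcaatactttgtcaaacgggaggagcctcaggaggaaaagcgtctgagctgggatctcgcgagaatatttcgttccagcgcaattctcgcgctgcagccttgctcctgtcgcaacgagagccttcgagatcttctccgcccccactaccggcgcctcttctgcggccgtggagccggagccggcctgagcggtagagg
Hsph1, chr12:10427118-10427417, plus strand: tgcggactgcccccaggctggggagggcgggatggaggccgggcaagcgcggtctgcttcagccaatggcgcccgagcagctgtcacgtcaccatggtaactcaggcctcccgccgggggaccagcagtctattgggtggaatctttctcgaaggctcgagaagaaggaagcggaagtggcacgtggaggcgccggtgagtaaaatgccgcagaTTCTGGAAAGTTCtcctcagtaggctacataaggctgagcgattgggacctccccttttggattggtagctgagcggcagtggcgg
Hspe1, chr9:64084077-64084376, plus strand: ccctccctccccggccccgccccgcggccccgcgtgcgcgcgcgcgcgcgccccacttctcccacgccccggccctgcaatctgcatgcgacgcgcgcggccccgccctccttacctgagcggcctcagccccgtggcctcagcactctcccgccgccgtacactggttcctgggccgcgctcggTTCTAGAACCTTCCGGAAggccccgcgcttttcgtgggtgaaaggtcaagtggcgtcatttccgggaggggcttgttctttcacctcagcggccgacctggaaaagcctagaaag
Hspa5, chr3:38452766-38453065, plus strand: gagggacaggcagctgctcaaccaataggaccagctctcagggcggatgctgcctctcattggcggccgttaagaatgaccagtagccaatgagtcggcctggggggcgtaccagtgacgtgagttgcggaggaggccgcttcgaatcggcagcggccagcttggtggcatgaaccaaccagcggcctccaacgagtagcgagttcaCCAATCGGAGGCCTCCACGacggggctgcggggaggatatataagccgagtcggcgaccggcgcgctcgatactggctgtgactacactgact
Hsp90b1, chr7:23012244-23012543, minus strand: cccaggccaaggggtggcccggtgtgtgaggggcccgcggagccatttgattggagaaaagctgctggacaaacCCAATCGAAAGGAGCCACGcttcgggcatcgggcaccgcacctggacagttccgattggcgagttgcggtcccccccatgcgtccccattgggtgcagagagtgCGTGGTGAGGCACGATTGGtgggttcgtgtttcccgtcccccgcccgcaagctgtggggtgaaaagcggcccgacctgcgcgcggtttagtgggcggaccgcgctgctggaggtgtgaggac
Chac1, chr3:126795881-126796180, plus strand: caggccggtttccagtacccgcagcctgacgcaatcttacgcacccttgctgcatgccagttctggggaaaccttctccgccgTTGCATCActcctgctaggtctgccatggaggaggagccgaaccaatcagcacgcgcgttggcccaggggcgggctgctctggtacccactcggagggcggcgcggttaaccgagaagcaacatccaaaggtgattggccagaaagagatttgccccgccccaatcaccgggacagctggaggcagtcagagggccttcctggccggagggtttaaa
The Hspa4 window held none of the 3 motifs, while that of Hsph1, its relative, held 1 heat shock element. The 300-base windows of Hspe1 and Hspd1, which are transcribed away from each other, share 211 bases, and their 2 overlapping heat shock element matches lie at the same positions.

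The heat shock element was found in 3 of 8 cytosolic and 2 of 3 mitochondrial chaperone promoters, against 0.798% of all 33469 promoters. The ER stress response element stood in 6 of 12 ER gene promoters and in 1 of 2 of the transcription factors (Xbp1), against 0.0657% of all. The amino acid response element stood in 2 of 4 Atf4 target promoters (Chac1 and Trib3), in Herpud1 and in Hspa9, against 3.98% of all. A match is a string of letters and not a shown binding site.

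All 6 measured oocyte and all 6 granulosa markers of the labelled tissue were above the filter, which 10600 of 14218 genes passed. Zp3 of the zona pellucida had mean signals of 4063 in NT3 and 4285 in control, and Foxl2 of granulosa cells had 597 and 527. The median signals of the arrays were 69 to 75. One array, control replicate 2, differed from the rest in RNA quality. Its ratio of 3′ to 5′ signal was 6.83 for beta-actin, against 2.78 to 2.91 on the NT3 arrays and 2.42 and 2.60 on the other controls, and 1.70 for Gapdh, against 1.21 to 1.25 in NT3 and 1.09 and 1.14 in the other controls. Summed stromal markers were higher in NT3 arrays (19165 to 21490.5) than in controls (18183 to 18547), with 6 of 6 markers higher and none at 0. Taken singly, only Lum had groups that did not overlap, and the lowest unadjusted limma p of the 6 was 0.0876. On control replicate 2, Col1a1 was at its highest of the 6 arrays (5301) and Dcn at its lowest (4521), which offset each other in the sum. Summed leukocyte markers were also higher in NT3 (1095.5 to 1226) than in controls (967 to 1048), with 5 of 6 higher and none at 0. The sums for oocyte (13520.2 to 16350.3 in NT3 and 15306.5 to 16244 in control), granulosa, endothelial, oviduct, smooth muscle, adipocyte and nerve markers overlapped between the groups. Of single markers in these lists, 5 of 6 for oocytes, 3 of 6 for granulosa cells and 5 of 5 for endothelium were lower in NT3. So were 3 of 5 for smooth muscle and 4 of 4 for adipocytes, while 3 of 4 for oviduct epithelium and 3 of 3 for nerve were higher. Only 1 of the 4 adipocyte markers and 0 of the 3 nerve markers lay above the filter. Cldn3, a claudin gene among the oviduct markers, had 148, 143 and 86.2 in NT3, against 64.6, 67.9 and 61.7 in control, with a log2 fold change of 0.92 and the lowest unadjusted limma p of all tested genes, 0.00372 (adjusted limma p 1.00). The part of RNA quality and of cell makeup in the results below was not tested.

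None of the 32 genes passed the test. By limma with Benjamini-Hochberg adjustment over all 18625 probe sets, 0 probe sets and 0 of the 32 genes had an adjusted p under 0.05, and the lowest adjusted p was 1.00. With an unadjusted limma p under 0.05 there were 3 genes, or 9.38% of the 32, with Hspa4 and Chac1 lower and Manf higher in NT3. Over all tested genes 1.17% reached that level (0.698% lower and 0.472% higher). The 32 were chosen with earlier results of these data known, so their counts beside all genes are a description and no test. Of 118 other tested genes of these pathways, 0 reached that level. The number of the 32 with an unadjusted limma p under 0.05 was 4 without control replicate 2, where 3.52% of all probe sets reached that level. It was 1 each without control replicate 3 (2.26% of probe sets) and without NT3 replicate 2 (0.956%). In the main fit the share of probe sets was 1.29%. The median log2 fold change of the 32 was -0.0063, against -0.0075 over all tested genes, with 14 higher and 18 lower, and the share that was lower, 56.3%, lay near the 52.6% of all genes. Intervals were narrow for most of these well expressed genes, and for 26 of the 32 the whole 95% interval lay within 1.41-fold to either side. The interval reached beyond 2-fold only for Hspa4 and Hspa4l.

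**Figure D1:**
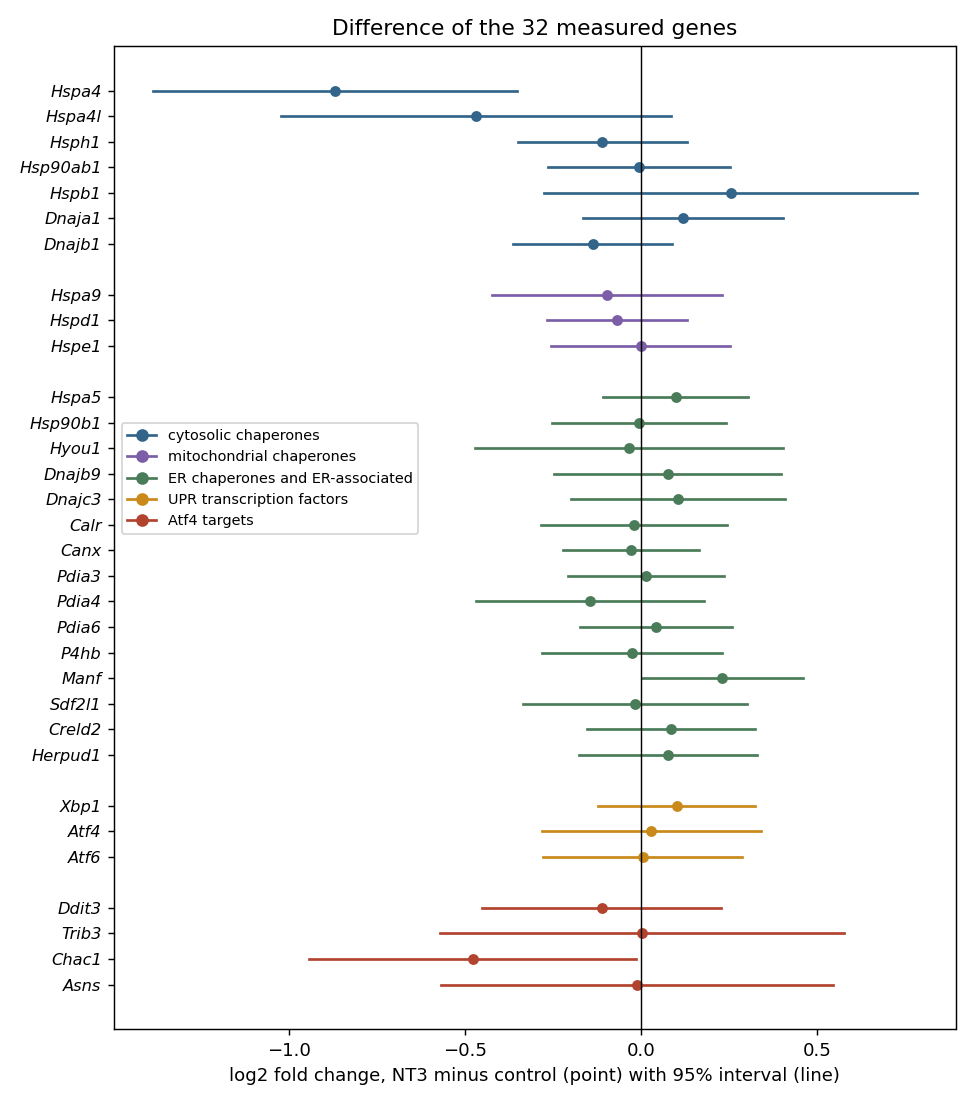
Log2 fold change, NT3 minus control, of the 32 measured genes (points) with the 95% interval from limma (lines), coloured by group. The vertical line marks no difference. Most points lie within 0.15 of 0, while Hspa4, at -0.87, and Chac1, at -0.48, lie to the left with intervals that end below 0.

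Among cytosolic chaperones, Hspa4 had the largest difference. This gene encodes Apg-2, an Hsp110 protein that serves as nucleotide exchange factor for Hsp70. Its signal was 206, 175 and 114 in NT3 replicates 1 to 3, against 353, 275 and 258 in control replicates 1 to 3. Every NT3 array lay below every control array. The means were 165 ± 46.8 in NT3 and 295 ± 50.7 in control (SD, n = 3 each), and the log2 fold change was -0.87 ± 0.23 (SE), with a 95% interval of the fold from 0.382 to 0.783. The unadjusted limma p was 0.00418 and the adjusted limma p was 1.00, and an exact 2-sided permutation test gave p = 0.1, the smallest that 3 arrays against 3 allow.

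Hspa4 was as low without the array of poor RNA quality, at a log2 fold change of -0.91 when control replicate 2 was left out. Over single arrays left out it lay between -1.05 and -0.62, the second without NT3 replicate 3. When the fit took replicate number as a block, the unadjusted limma p was 0.000452 and the adjusted limma p was again 1.00. That fit had the same 3 genes, Hspa4, Chac1 and Manf, at an unadjusted limma p under 0.05, a level that 2.03% of all tested genes reached. In the blocked fit to the arrays numbered 1 and 3 alone, the log2 fold change was -0.98 and the adjusted limma p was 0.0390. This fit rests on 2 pairs. It was the only setting tried in which any of the 32 genes passed, and it called 6 probe sets in all.

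The other Hsp110 genes had smaller differences in the same direction. Hspa4l, which encodes a relative prominent in the testis in mice, had signals of 44.5, 48.4 and 43.7 in NT3, against 50.5, 83.4 and 59.2 in control. The groups do not overlap, but they lie near the filter value of 41.3, and the difference was smaller without control replicate 2. The log2 fold change was -0.47 ± 0.24 with an unadjusted limma p of 0.0880. Over single arrays left out it lay between -0.63, without control replicate 1, and -0.27, without control replicate 2. Hsph1, which encodes the heat-inducible Hsp105, had 670.3, 670.5 and 762 in NT3, against 715, 803 and 750.0 in control. Here NT3 replicate 3 lay above 2 of the controls, and the log2 fold change was -0.11 ± 0.11, with -0.066 on its other probe set. The differences between the members of this family were not tested.

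**Figure D2:**
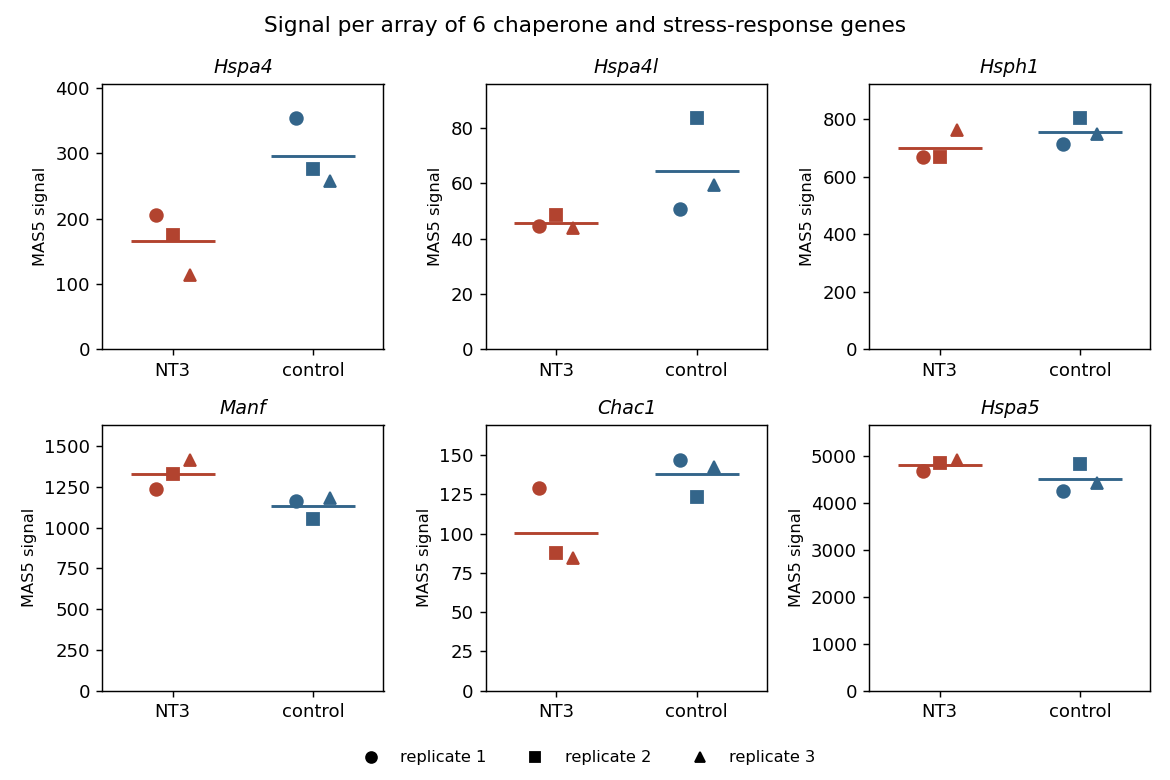
MAS5 signal per array (vertical axes, linear, from 0) for the 3 Hsp110 genes Hspa4, Hspa4l and Hsph1 and for Manf, Chac1 and Hspa5, with NT3 arrays left and control arrays right; shapes give the replicate number and horizontal lines the group means. Hspa4 and Hspa4l have all NT3 arrays below all controls, Manf has all above, and the groups of the other 3 genes overlap.

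The remaining cytosolic chaperones overlapped between the groups. Hsp90ab1, the constitutive Hsp90 gene, had a mean signal of 5556 ± 412 in NT3 and 5596 ± 696 in control (SD, n = 3 each), with a log2 fold change of -0.0058 and an interval of the fold from 0.833 to 1.19. For the J-domain genes, Dnaja1 had 2462 ± 107 in NT3 and 2283 ± 353 in control, and Dnajb1, partner of inducible Hsp70, had 1160.3 ± 61.7 and 1277 ± 88.3. Their log2 fold changes were 0.12 ± 0.13 and -0.14 ± 0.10, and -0.014 and -0.085 without control replicate 2. Hspb1, the small heat shock protein Hsp27 in human nomenclature, varied most within its groups, from 199.7 to 382.5 in NT3 and from 215 to 286 in control. Its log2 fold change was 0.25 ± 0.23, and with single arrays left out it ranged between 0.057 (without NT3 replicate 2) and 0.53 (without NT3 replicate 3). Of the 7 cytosolic genes, 5 were lower and 2 higher, with a median of -0.11.

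The mitochondrial chaperones, which fold imported proteins of the matrix, all had intervals that took in 1. Hspd1, the Hsp60 chaperonin gene, had signals of 2564, 2391 and 2416 in NT3, against 2534, 2674 and 2522 in control. One NT3 array lay within the control values and the others below, for a log2 fold change of -0.069 ± 0.088. Hspe1, the gene of its cochaperonin Hsp10, with which it shares the promoter shown above, had 4801 ± 355 in NT3 and 4818 ± 535 in control (SD, n = 3 each), a log2 fold change of -0.0016. For Hspa9, which encodes mortalin, the mitochondrial Hsp70, signals were 610.3, 564 and 603 in NT3, against 688, 509 and 725 in control. Control replicate 2 was the lowest array and the other controls the highest, which gave a log2 fold change of -0.10 ± 0.14. Leaving out control replicate 2 gave -0.25, with an unadjusted limma p of 0.0259. Its other 3 probe sets went the opposite way, with log2 fold changes from 0.088 to 0.23, the lowest of them on a probe set below the filter.

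Genes of ER folding differed little as a group. In NT3, 8 of 15 were higher and 7 lower, and the median of their log2 fold changes was 0.014, against -0.0075 over all tested genes. For all 15 the 95% interval lay within 1.41-fold. Manf had the largest difference of them. It encodes a secreted and ER-resident factor that binds Grp78 and is raised by ER stress. Its signal was 1236, 1326 and 1417 in NT3, against 1163, 1049.6 and 1179 in control. All NT3 arrays lay above all controls, at means of 1326 ± 90.2 in NT3 and 1130.5 ± 70.5 in control (SD, n = 3 each). The log2 fold change was 0.23 ± 0.10, or 1.17-fold with an interval from 1.00 to 1.37, and the unadjusted limma p was 0.0490. Control replicate 2 was its lowest array, and without it the log2 fold change was 0.18 with an unadjusted limma p of 0.0869. Whichever single array was left out, the unadjusted limma p of Manf was above 0.05, from 0.0523 (without NT3 replicate 1) to 0.157 (without NT3 replicate 3). The unadjusted limma p was also above it with median centring (0.0716), no trend (0.103) and array weights (0.0827).

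Hspa5, the ER Hsp70 and most used marker of ER stress, had signals of 4679.5, 4850 and 4926 in NT3, against 4258.5, 4831.5 and 4432 in control. The NT3 arrays were the higher in all 3 pairs of equal number but overlapped the controls, with a log2 fold change of 0.10 ± 0.09 and an interval of the fold from 0.928 to 1.23. Hsp90b1, the ER Hsp90 gene, had -0.0067 ± 0.11, and Hyou1, which encodes the Hsp110 relative of the ER, -0.034 ± 0.19. The J-domain genes Dnajb9 and Dnajc3, whose products assist Grp78, had 0.076 and 0.10, and Dnajc3 had 0.23 without control replicate 2 (unadjusted limma p of 0.0454) but 0.012 without control replicate 1 (unadjusted limma p of 0.936). Neither Calr, the gene of the lectin chaperone calreticulin, at -0.021, nor Canx, the gene of its membrane-bound relative calnexin, at -0.028, lay beyond its standard error. Both other probe sets of Canx had positive log2 fold changes, 0.14 and 0.38, and for the second the mean of the linear signals was the other way, 328 in NT3 and 334 in control.

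Disulfide isomerases form and reshuffle the disulfide bonds of secreted proteins. Pdia3, which works with the lectin chaperones, had a mean signal of 2461 ± 109 in NT3 and 2440.5 ± 199 in control (SD, n = 3 each). Pdia4 had 673 ± 72.3 in NT3 and 747 ± 125 in control, and Pdia6 had 3280.5 ± 125 and 3192 ± 246. P4hb, which is also a subunit of collagen prolyl 4-hydroxylase, had 3671 ± 171 in NT3 and 3755 ± 505 in control. Their log2 fold changes were 0.014, -0.15, 0.042 and -0.025. That of Pdia4 lay between -0.24 and -0.015 with single arrays left out, and was -0.32 in the 2-pair blocked fit, with an unadjusted limma p of 0.0172. Among genes that are raised by ER stress, Sdf2l1, whose product assists Grp78, had -0.018, Creld2 had 0.085 and Herpud1, which acts in the removal of misfolded ER proteins, had 0.077. The 7 measured genes whose promoters held the ER stress response element, Xbp1 among them, had log2 fold changes between -0.028 and 0.10, with 4 higher and 3 lower.

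The transcription factors of the response were all within 1.27-fold by their intervals. Xbp1, whose transcript is spliced by Ire1, had 1532, 1424.5 and 1547 in NT3, against 1456, 1282 and 1467 in control. The NT3 array was higher in all 3 pairs, though NT3 replicate 2 lay below 2 controls, and the log2 fold change was 0.10 ± 0.10. Whether the probe set tells the spliced from the unspliced form is not stated in the annotation used. Atf6, the membrane-bound factor that is cut on ER stress, had 416 ± 19.1 in NT3 and 417 ± 52.0 in control (SD, n = 3 each). These factors are controlled largely by splicing, cleavage and translation, which signals of transcript amount do not record.

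For Atf4, Asns and Trib3 the signals lay further apart between replicate numbers than between the group means. Atf4 had 1618, 1221.5 and 1276 in NT3 replicates 1 to 3, against 1528, 1217 and 1278 in control replicates 1 to 3. The arrays numbered 1 were the highest of both groups, and arrays of equal number differed by at most 0.082 on the log2 scale. Asns, the asparagine synthetase gene, had 177, 106 and 102 in NT3, against 155, 115 and 110.5 in control. Trib3, a pseudokinase gene, had 87.3, 59.2 and 56.5 in NT3, against 83.3, 63.5 and 55.0 in control. In both genes, too, the array numbered 1 was the highest of its group. Their log2 fold changes for NT3 were 0.029 ± 0.14, -0.012 ± 0.25 and 0.0018 ± 0.25. By its name, the Trib3 probe set may also bind other transcripts.

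**Figure D3:**
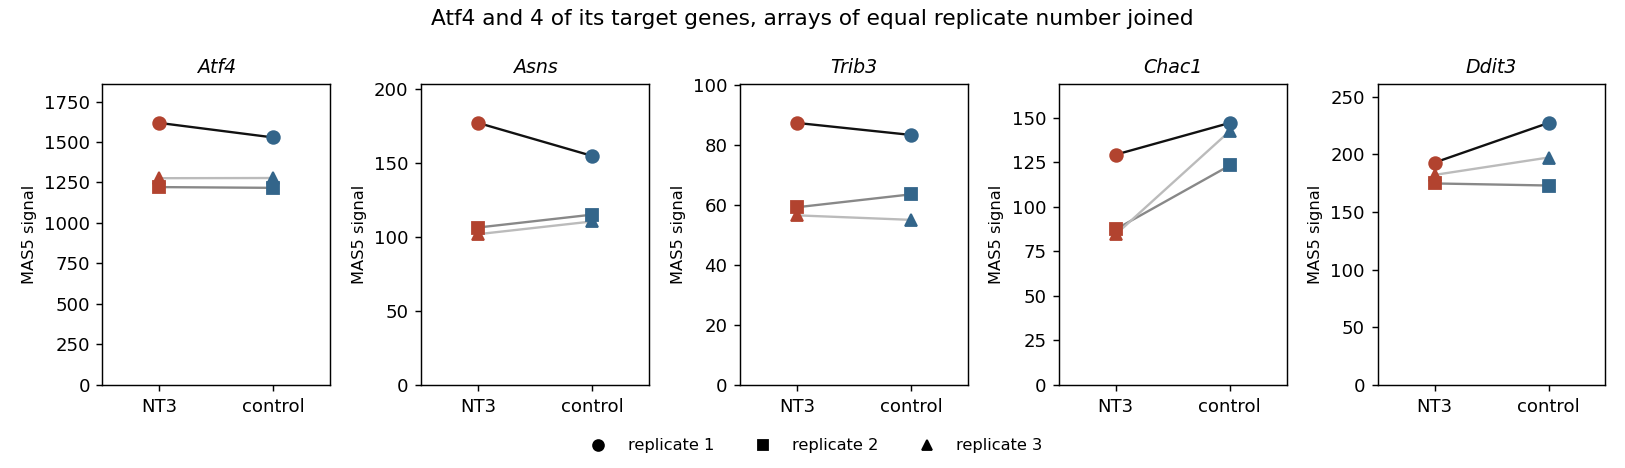
MAS5 signal (vertical axes, linear, from 0) of Atf4 and of its 4 target genes Asns, Trib3, Chac1 and Ddit3, with NT3 left and control right and lines joining arrays of equal replicate number. The line of replicate 1 lies above the others in each panel, and each Chac1 line has its lower end at NT3.

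Chac1, which encodes a glutathione-degrading enzyme, had the largest log2 fold change of the 4 targets and did not pass the test. Its signal was 129, 87.4 and 84.5 in NT3, against 147, 123 and 142.5 in control. It was lower in NT3 in all 3 pairs, although NT3 replicate 1 lay above control replicate 2. The log2 fold change was -0.48 ± 0.21 with an interval of the fold from 0.520 to 0.990 and an unadjusted limma p of 0.0447, and the adjusted limma p was 1.00. An exact 2-sided permutation test gave p = 0.2. Over single arrays left out the log2 fold change lay between -0.67 and -0.37. The unadjusted limma p rose to 0.137 and 0.146 without NT3 replicates 2 and 3, and to 0.116 and 0.103 without control replicates 1 and 3. That limma p fell to 0.0091 without NT3 replicate 1 and to 0.0262 without control replicate 2. Ddit3, the gene of the proapoptotic factor Chop, had 193, 175 and 182 in NT3, against 227, 173 and 197 in control, with a log2 fold change of -0.11 ± 0.15.

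The signal was highest in replicate 1 of both groups for Atf4 and for all 4 of its target genes, a pattern noticed after the values were seen. Of all 32 genes 6 had it, the sixth being Hspa4, and over all tested genes the share was 11.6%. Other genes of the Atf4 pathway had it in 5 of 30, or 16.7%. By the replicate term of limma's blocked fit, the unadjusted p was 0.0178 for Atf4, 0.0229 for Asns and 0.0231 for Hspa4, at an adjusted limma p of 0.422 for each. It was 0.0839 for Trib3, 0.201 for Chac1 and 0.328 for Ddit3, by the same limma fit. In that fit 11.0% of all tested genes had an unadjusted p under 0.05 in the replicate term and 0.0189% an adjusted p under 0.05. No ER gene had its highest signal in replicate 1 of both groups.

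**Figure D4:**
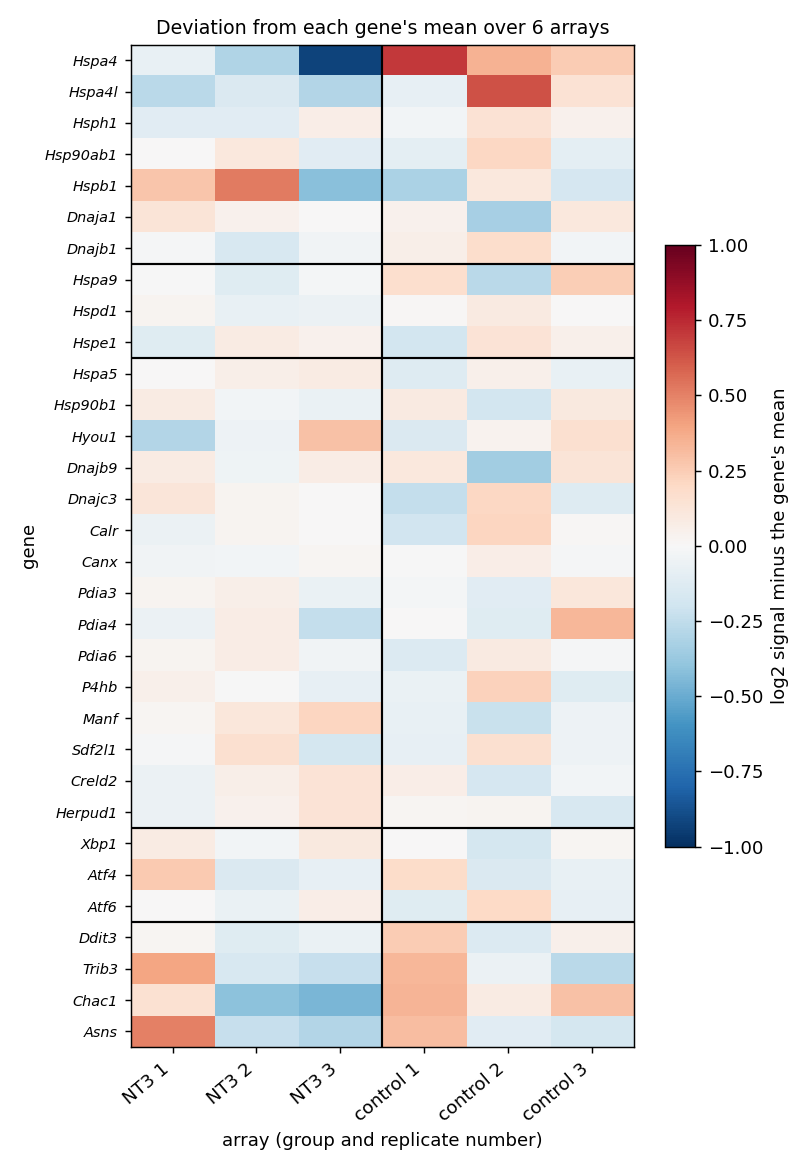
Log2 signal minus the gene's mean over the 6 arrays (colour, from blue below to red above) for the 32 genes (rows, with lines between cytosolic, mitochondrial, ER, transcription factor and Atf4 target genes) on each array (columns, NT3 left). Hspa4 is blue to white in NT3 and red in control, and Trib3 and Asns are red in NT3 replicate 1 and control replicate 1, where Ddit3 is near white in NT3 replicate 1.

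The deviation of each array from the genes' means is given as a median over each group of genes, without a test. The median deviation of the cytosolic genes was -0.013, -0.12 and -0.11 log2 units in NT3, against -0.024, 0.17 and 0.045 in control. In the ER genes it was 0.0071, 0.040 and 0.0068 in NT3, against -0.068, 0.035 and -0.015 in control. In the mitochondrial genes it was -0.0047, -0.073 and -0.022 in NT3, against 0.011, 0.088 and 0.050 in control. The largest of these medians was 0.17, on control replicate 2. In the transcription factors it was 0.081, -0.067 and 0.066 in NT3, against 0.0074, -0.15 and -0.077 in control. The Atf4 targets had 0.28, -0.20 and -0.26 in NT3, against 0.32, -0.090 and -0.062 in control. Control replicate 2 was the highest of the 6 arrays for 13 of the 32 genes, or 40.6%, and the lowest for 10, or 31.3%. Over all tested genes these shares were 35.8% and 22.5%, so that array was often extreme throughout.

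Groups that do not overlap were found for 3 of the 32 genes, Hspa4 and Hspa4l with NT3 below and Manf with NT3 above, where 5.74% of all tested genes were separated (3.33% below and 2.41% above). A further 132 genes of the same pathways were listed, of which 118 were tested, 10 lay below the filter and 4 had no probe set of their own. Limma called 0 of the 118 after adjustment, and 0 had an unadjusted p under 0.05, against 1.17% of all genes. Of them 56 were higher in NT3 and 62 lower, and their median was -0.0057 on the log2 scale. By part, 27 of 46 other cytosolic and mitochondrial chaperone genes, 18 of 42 other ER genes and 11 of 30 other Atf4 pathway genes were higher. In 4 of the 118 the groups did not overlap, or 3.39%, and these are named because of that. Creb3l1, which encodes a membrane-bound factor related to Atf6, had 182.5, 127 and 126 in NT3, against 118, 99.3 and 104 in control. Slc7a11, which encodes a cystine transporter and is an Atf4 target, had 91.3, 58.2 and 80.0 in NT3, against 108, 98.9 and 98.3 in control. Their log2 fold changes were 0.42 ± 0.19 and -0.44 ± 0.21. Kdelr3, a receptor gene for the return of ER proteins, and the Hsp70 gene Hspa14 had 0.23 ± 0.11 and 0.10 ± 0.10.

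Different probe sets of a gene did not always go the same way. Of 10 genes with more than 1 probe set there were 14 further probe sets, of which 9 lay above the filter, 3 with the direction of the one used and 6 with the opposite. Hspa4, Manf and Chac1 have a single probe set each.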

How the data were processed

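RNA was measured on Affymetrix arrays of 1 colour, 6 in all. The authors deposited 1 linear intensity per probe set and array, made with MAS5 per the submitters' processing notes. The MAS5 version was not given in the sources used here. Arrays had a common trimmed mean signal of 210.1 (2% taken off each end), and no further scaling was applied. Of 31099 probe sets, 57 controls were removed. Signals were taken to log2 with a floor of 0.1, and probe sets below the 40th percentile of mean log2 signal, 5.37 or a signal of 41.3, were not tested; 18625 remained. NT3 was compared with control by limma (3.58.1, R 4.3.3) with an intensity trend, 2-sided, with Benjamini-Hochberg adjustment over all probe sets. The genes, lists and tests were chosen with earlier results of these data known.

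Values per array were given for genes with an unadjusted p under 0.05, the 2 lowest p in each group, and Hspa4, Hspa4l, Hsph1, Hspa5, Atf4 and Ddit3; Asns and Trib3 were added after their values were seen. Further pathway genes were to be named at an unadjusted p under 0.05, which none reached. Deviations of equally numbered arrays correlated at 0.230, 0.247 and 0.222, against at most 0.029 for arrays of different number in the 2 groups. On the data's evidence alone, equal numbers were therefore described as pairs and used as a block in an alternative fit. The main fit held the group only, so its standard errors, intervals and p-values do not take the pairing into account. The alternatives were a replicate block, quantile normalization, median centring, other filters, an offset, no trend, array weights, each array left out and the mean of all probe sets.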

Additional observations from a re-analysis of the deposited data

How the results depend on the processing

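With 3 arrays a group and 1 of them of poor RNA quality, differences of the size seen for most of these genes could not be told from the spread between arrays. Over 16 alternatives, the 32 genes gave 506 log2 fold changes, each of a gene in an alternative where it was tested. Of these, 60 turned in direction and the rest kept it. In the replicate block with all arrays, the other filters and the fit without a trend, the log2 fold changes could not turn. There the log2 fold change is that of the main fit by construction, so a kept direction is no sign of stability. In none of the fits did 15 genes turn, among them Hspa4, Hspa4l, Hsph1, Manf, Hspa5, Xbp1, Chac1 and Ddit3. The number of probe sets called was 0 in every setting (also at an adjusted p under 0.1) but the replicate block with the arrays numbered 1 and 3 alone, which called 6, Hspa4 among them at -0.98. The replicate block with all arrays left the 3 genes at an unadjusted p under 0.05 and changed no call. That count was 5 in the 2-pair fit, where 5.14% of all probe sets reached the same level. With single arrays left out it was 1 to 4, beside shares of all probe sets from 0.945% to 3.52%. The main fit had 3 genes and a share of 1.29%, so the counts are not comparable between settings without these shares. The median of the genes was 0.026 with array weights and -0.026 to 0.027 with single arrays left out. The cause of these differences was not tested.

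With single arrays left out, these genes turned: Hsp90b1 -0.10 to 0.042, Pdia6 -0.016 to 0.10, Atf6 -0.057 to 0.10, Asns -0.27 to 0.14, Hsp90ab1 -0.058 to 0.095, Dnaja1 -0.014 to 0.20, Hspe1 -0.093 to 0.065, Dnajb9 -0.080 to 0.16, Calr -0.12 to 0.081, Pdia3 -0.041 to 0.076, P4hb -0.093 to 0.082, Sdf2l1 -0.10 to 0.067, Atf4 -0.10 to 0.13, Trib3 -0.20 to 0.17, Hspa9 -0.25 to 0.0012 and Hyou1 -0.19 to 0.10. Quantile normalization turned Pdia3 to -0.019, and median centring turned Hsp90ab1 to 0.0035, Hspe1 to 0.0077 and Hsp90b1 to 0.0026. Array weights turned Hsp90ab1 to 0.076, Hspe1 to 0.030, Dnajb9 to -0.037, Calr to 0.051, Pdia3 to -0.017, P4hb to 0.069, Sdf2l1 to 0.049 and Asns to 0.034. The replicate block with the arrays numbered 1 and 3 alone turned Hsp90ab1 to 0.042, Dnaja1 to -0.0068, Hspe1 to 0.025, Dnajb9 to -0.040, Calr to 0.061, Canx to 0.0041, Pdia3 to -0.066, P4hb to 0.077 and Asns to 0.039. The mean of all probe sets turned Hsp90ab1 to 0.0057, Hspa9 to 0.10, Canx to 0.16 and Atf6 to -0.0079. The filter at the 60th percentile left out Hspa4l, Trib3 and Chac1.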
